A study of Mus musculus with 2 samples.

Results

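The genes described here are 6 regulators of the G1 phase of the cell cycle, Ccnd2, Ccnd3, Cdk6, Cdkn2a, Rbl2 and Mycn, chosen by symbol from the 886 genes of the authors' deposited table. All 6 were found there, and each symbol matched 1 Ensembl gene ID. The cells were 46C mouse embryonic stem cells, a line that carries a Sox1 reporter for neural differentiation, kept in LIF and serum. The control condition overexpressed only a Flag tag and the other Prdm14 carrying that tag, and the labels give 1 sample for each; how many libraries each mean covers is not stated. The promoter that drove either construct, and whether the cells were a clone or a pool, are not stated in the labels. The sequencing readout was the authors' mean TPM (a transcript level scaled by length and by library) for each condition, with no value per replicate and with an unknown read depth, so no SD is given and no difference has a replicate check here. "Higher" and "lower" describe the Prdm14 cells against the Flag cells, and a fold is the ratio of the authors' means.

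The title and sample labels name Prdm14, whereas the series design text speaks of gadd45g. The Prdm14 mean was 3.30 TPM in the Flag cells and 399 TPM in the Prdm14 cells, which goes with the sample labels. Gadd45g was lower, with 21.6 TPM in the Flag cells and 3.57 TPM in the Prdm14 cells. The table holds only genes that the authors had selected: the smallest absolute log2 fold change in it was 1.00, the smallest value of the larger mean was 5.01 TPM and the largest q-value in the authors' deposited table was 0.0427. Its q-values have the form of an adjustment over 20309 genes, of which the 886 in the table are 4.36%. That share covers genes at any level. The share among genes that reach 5.01 TPM cannot be lower than 4.36% and is not known. Shares of gene lists are therefore set beside 4.36% as a description only. Because a gene had to differ to be in the table, the difference of the 6 genes between the conditions was part of how they came to be chosen, and their folds are given as a description. A gene outside the table has no value here.

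In G1, D-type cyclins bind the kinases Cdk4 and Cdk6, and the complexes phosphorylate the retinoblastoma family of pocket proteins, which then release E2F transcription factors and let the genes of S phase be expressed. The p16Ink4a product of Cdkn2a inhibits Cdk4 and Cdk6, while its other product, p19Arf, stabilises p53 by holding back Mdm2. Mouse embryonic stem cells have a short G1 phase and low D-type cyclin activity, and the cyclin D3 complex with Cdk6 in them has been described as resistant to p16Ink4a. MYC family factors, of which N-Myc is the one encoded by Mycn, sustain their growth and self-renewal.

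The promoters of Mycn and Cdkn2a are shown because they are the members whose promoter windows held an E2F site, and because Cdkn2a has a separate promoter for each product. Windows came from RefSeq on GRCm38.p6, and 5 of the 6 genes had one, Ccnd2 being the exception. The 7 windows of the 5 genes were searched over the 250 bases before each start. Sequences are printed 5′ to 3′ on the gene's strand up to the first base of any annotated exon of the gene, in lower case with E2F sites in capitals.

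Mycn, chr12:12941915-12942086, minus strand: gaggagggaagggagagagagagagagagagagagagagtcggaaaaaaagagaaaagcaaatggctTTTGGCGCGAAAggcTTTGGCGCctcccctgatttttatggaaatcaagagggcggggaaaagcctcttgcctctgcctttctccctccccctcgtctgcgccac
Cdkn2a, p19Arf start, chr4:89294654-89294869, minus strand: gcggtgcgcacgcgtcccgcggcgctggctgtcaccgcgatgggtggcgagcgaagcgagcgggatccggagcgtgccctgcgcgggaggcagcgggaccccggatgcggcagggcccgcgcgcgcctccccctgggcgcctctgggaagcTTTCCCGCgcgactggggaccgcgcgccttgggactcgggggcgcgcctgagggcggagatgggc
Cdkn2a, p16Ink4a start, chr4:89282193-89282442, minus strand: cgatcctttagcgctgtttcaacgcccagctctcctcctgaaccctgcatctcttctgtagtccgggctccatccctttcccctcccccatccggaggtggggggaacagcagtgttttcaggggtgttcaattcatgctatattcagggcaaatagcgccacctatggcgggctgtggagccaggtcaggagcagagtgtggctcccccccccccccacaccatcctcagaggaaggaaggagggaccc

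The E2F sites searched on both strands were TTTGGCGC, TTTCCCGC, TTTCGCGC and TTTGCCGC. The Mycn window held 3 matches, at bases -183 to -176, -179 to -172 and -168 to -161 from the start. The first and the second overlap on opposite strands. Of all 32851 RefSeq windows of the same length, 1.86% held at least 1 E2F match and 4 windows held 3 or more. The p19Arf window of Cdkn2a held 1 match at bases -99 to -92, and the p16Ink4a window held none. The p19Arf window was also the richer in G and C, at 78.4% against 60.0% in the p16Ink4a window and a median of 52.4% over all windows.

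Other motifs were sparse in the members' windows. The E-box CACGTG, the sequence bound by MYC and MAX, was found in 6.02% of all windows. Among the members' windows it was found at bases -220 to -215 from the Cdk6 RefSeq start. The Cdk6 window lies wholly inside the GENCODE gene, whose first base is farther upstream. The cell cycle homology region, searched as TTTGAA and TTCGAA on both strands, was found once before Rbl2 and once before Mycn, and in 17.1% of all windows. The Mycn match, at bases -14 to -9 from the RefSeq start, lies inside the GENCODE gene, whose first base is farther upstream, and so beyond the printed sequence. The STAT site TTCNNNGAA, found in 7.02% of all windows, had no match in the members' windows, and neither Ccnd3 window held any of these motifs. A match is a run of letters and not a measured binding site.

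**Figure D1:**
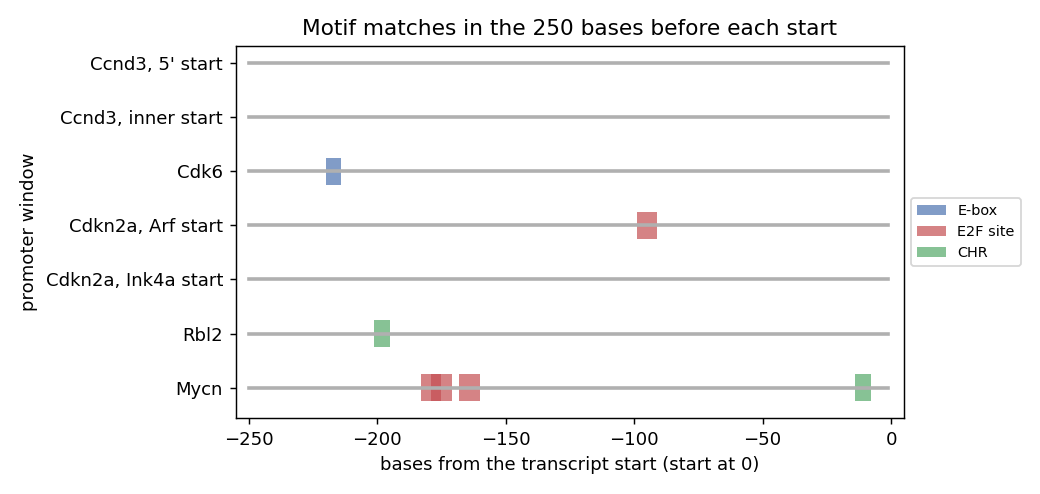
Motif matches in the 250 bases before each RefSeq start of the genes with a window; the horizontal axis is the distance from the start in bases, each grey line is a window and each coloured block a match. The 3 E2F matches of Mycn lie together between bases -183 and -161, and 1 lies before the p19Arf start of Cdkn2a.

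Both D-type cyclins in the table were higher in the Prdm14 cells, together with the kinase that they activate. Ccnd3 (ENSMUSG00000034165, chromosome 17, 47505051 to 47599691, plus strand, mm10), which encodes cyclin D3, had a mean of 169.8 TPM in the Flag cells and 370.5 TPM in the Prdm14 cells, 2.18-fold higher. It was the most abundant of the 6 genes in the Prdm14 cells and had the 7th highest mean of all listed genes there, against the 22nd in the Flag cells. Ccnd2 (ENSMUSG00000000184, chromosome 6, 127125162 to 127152193, minus strand), which encodes cyclin D2, had 9.92 TPM in the Flag cells and 30.6 TPM in the Prdm14 cells, 3.09-fold higher. Cyclin D2 therefore had the larger fold and cyclin D3 the larger difference in level, 201 TPM against 20.7 TPM. The level of Ccnd3 was 17.1 times that of Ccnd2 in the Flag cells and 12.1 times in the Prdm14 cells, so Ccnd3 was the main D-type transcript of the pair in both. The sum of both went from 179.8 to 401 TPM, and the share of Ccnd2 in it from 5.52% to 7.64%. Ccnd1, which encodes the remaining D-type cyclin, is outside the table and has no value here.

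Cdk6 (ENSMUSG00000040274, chromosome 5, 3341485 to 3531008, plus strand), the catalytic partner of the D-type cyclins, had a mean of 6.74 TPM in the Flag cells and 14.9 TPM in the Prdm14 cells, 2.21-fold higher. Its fold was close to that of Ccnd3, and the ratio of the Ccnd3 level to the Cdk6 level was 25.2 in the Flag cells and 24.9 in the Prdm14 cells. Cdk4, the other kinase of this step, is outside the table. Ccnd3 and Cdk6 lie nearest of the 6 to the fold at which the table begins, with log2 fold changes of 1.13 and 1.14 in the authors' deposited table, and rank 362nd and 351st by fold among its 468 higher genes.

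**Figure D2:**
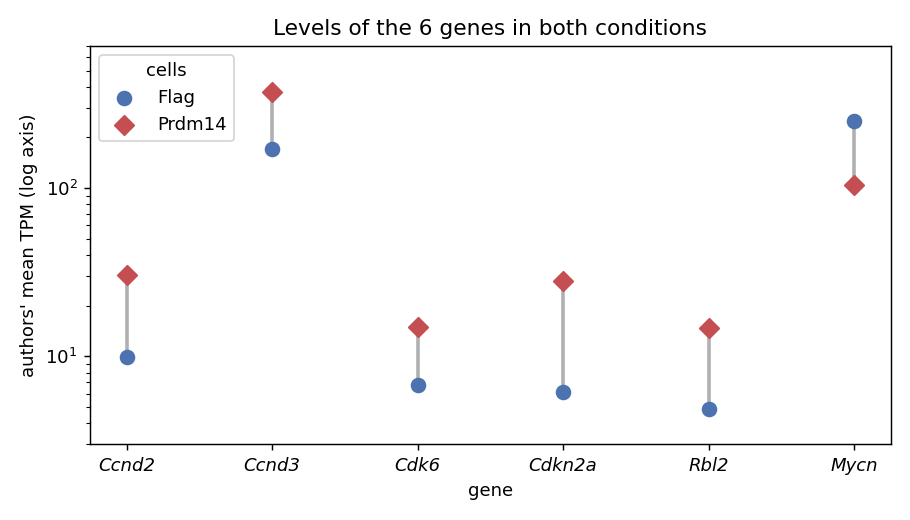
Authors' mean TPM of the 6 genes on a log axis, with a circle for the Flag cells and a diamond for the Prdm14 cells, joined by a line for each gene. Ccnd2, Ccnd3, Cdk6, Cdkn2a and Rbl2 are higher in the Prdm14 cells and Mycn is lower, and Ccnd3 and Mycn stand above the others in level.

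Of the 7 INK4 and CIP/KIP inhibitors of the cyclin-dependent kinases, Cdkn2a alone (14.3%) was listed, beside 4.36% of all genes, and it was higher. The other 6 have no value here. Since Cdkn2a was chosen from the listed genes, nothing is read from this count. Cdkn2a (ENSMUSG00000044303, chromosome 4, 89274471 to 89294653, minus strand) had a mean of 6.14 TPM in the Flag cells and 28.0 TPM in the Prdm14 cells, 4.56-fold higher. This was the largest fold of the 6 genes and the 64th of the 468 higher genes in the table. The annotation gives Cdkn2a 2 coding transcripts of 3 exons each, whose starts lie 12.5 kb apart and which share 575 exon bases. The deposited value is 1 number for the gene, so the p16Ink4a and p19Arf transcripts cannot be told apart in it. The level of Ccnd3 was 27.7 times that of Cdkn2a in the Flag cells and 13.2 times in the Prdm14 cells.

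Rbl2 (ENSMUSG00000031666, chromosome 8, 91070057 to 91123844, plus strand) encodes p130, the pocket protein that represses E2F target genes with E2F4 or E2F5 and the MuvB core when cells leave the cycle. It had a mean of 4.84 TPM in the Flag cells and 14.7 TPM in the Prdm14 cells, 3.04-fold higher. It was the least abundant of the 6 genes in both conditions, and its Flag mean lies below 5.01 TPM, so it was in the table only through its level in the Prdm14 cells. Of the 3 pocket protein genes, the other two, Rb1 and Rbl1, are outside the table. Of the 64 listed genes on chromosome 8, 79.7% were higher, against 52.8% of all listed genes, and the part of this in the value of Rbl2 was not tested. Its nearest listed neighbour, Zfp423, was 3110.5 kb away and also higher.

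Mycn was the member that was lower in the Prdm14 cells. Mycn (ENSMUSG00000037169, chromosome 12, 12936093 to 12941914, minus strand) had a mean of 250.2 TPM in the Flag cells and 104 TPM in the Prdm14 cells, 2.41-fold lower. It was the most abundant of the 6 genes in the Flag cells, with the 13th highest mean of the table, and had the 44th highest in the Prdm14 cells. The order of Mycn and Ccnd3 was turned between the conditions: the level of Mycn was 1.47 times that of Ccnd3 in the Flag cells and 0.281 times in the Prdm14 cells. The ratio of the Mycn level to the Cdkn2a level went from 40.7 to 3.72. Even so, Mycn at 104 TPM was still well above the median of 10.1 TPM over all listed genes in the Prdm14 cells.

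With 5 members higher and 1 lower, the directions stand beside 52.8% higher over the table, but the members were picked with their directions known and nothing is read from this count. By the authors' deposited table, the median absolute log2 fold change was 1.43 over the 6 genes and 1.47 over all 886. By the authors' deposited table, Cdkn2a alone of the 6 differed by 2 or more on the log2 scale, as 25.1% of all its genes did.

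**Figure D3:**
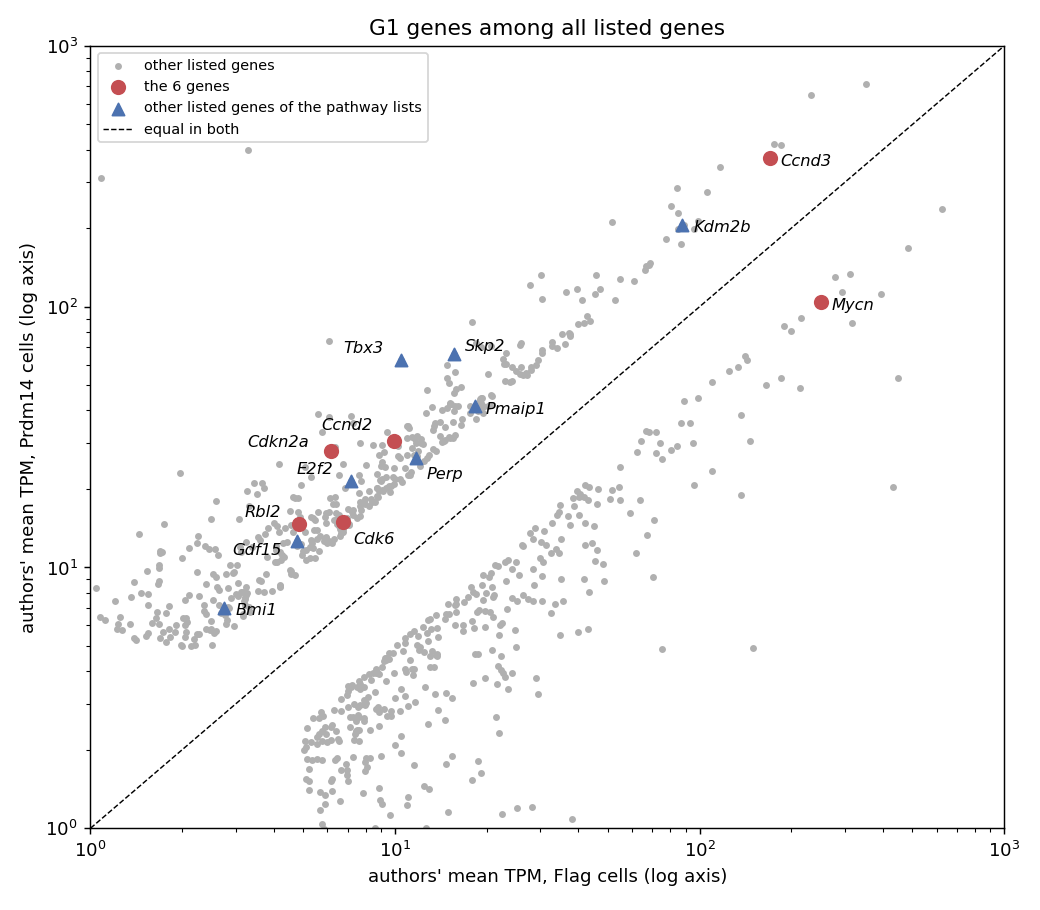
Authors' mean TPM in the Flag cells (horizontal) against the Prdm14 cells (vertical), both log axes from 1 to 1000 TPM, for 822 of the 886 listed genes (64 lie outside the frame). The 6 genes are red circles, other listed genes of the pathway lists are blue triangles and the dashed line marks equal levels; Mycn is the single marked gene below the line, and the de novo methyltransferases are not marked.

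The order of the members by q-value differed from their order by fold. In the authors' deposited table Ccnd2 had the smallest q-value of the 6, 1.26e-34. It was followed in the authors' deposited table by Ccnd3 with 2.38e-28, Mycn with 3.45e-20 and Cdk6 with 2.99e-16. Rbl2 with 1.59e-11 and Cdkn2a with 4.20e-09 had the largest q-values of the 6 in the authors' deposited table, although Cdkn2a had the largest fold. TPM is divided by length, so a short transcript is read by fewer fragments at the same TPM. The longest coding transcript is 0.90 kb for Cdkn2a and 11.53 kb for Cdk6, genes of similar TPM in the Flag cells. Multiplied by that length, the level of Cdkn2a was 5.50 TPM kb in the Flag cells and 25.0 TPM kb in the Prdm14 cells, the lowest of the 6 in both. For Cdk6 the same product was 77.7 and 171.7 TPM kb, and for Ccnd3 359 and 783 TPM kb. The 2 orders did not match throughout: Ccnd2, with the smallest q-value of the 6 in the authors' deposited table, had 62.8 and 193.9 TPM kb, below Cdk6 in the Flag cells. Mycn had 669 and 278 TPM kb, the highest product of the 6 in the Flag cells, and Rbl2 had 23.8 and 72.4 TPM kb. The part of transcript length in the order of the q-values was not tested, and the sources used here say neither which test gave them nor how many libraries lie behind each mean, so what spread they measure is unknown.

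**Figure D4:**
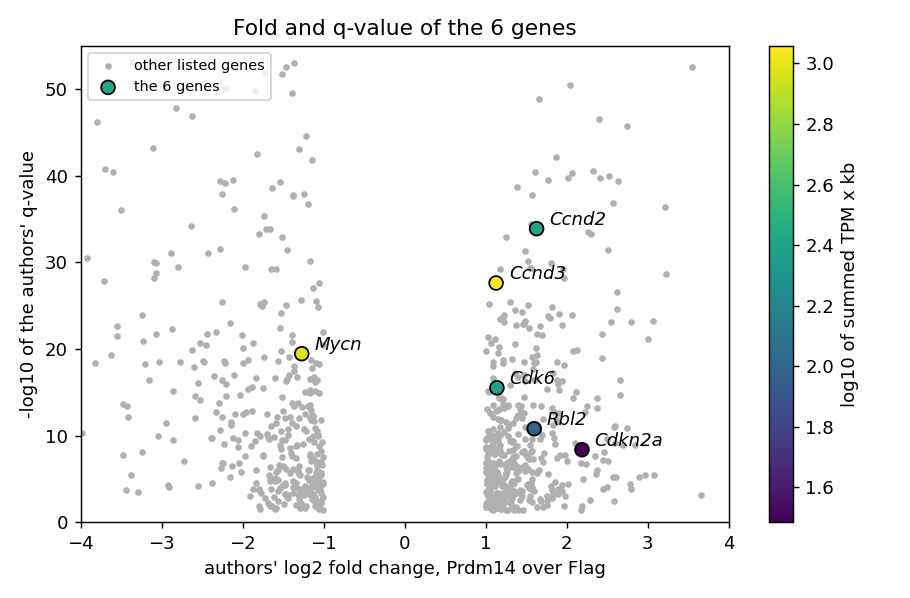
Log2 fold change (horizontal) and -log10 of the q-value (vertical) in the authors' deposited table, with the 6 genes coloured by the log10 of TPM times the length in kb of the longest coding transcript, summed over both conditions. Grey points are other listed genes, and 59 genes beyond the axes are not drawn; Cdkn2a is farthest right and lowest of the 6.

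Genes around these members were read from lists of the G1 machinery. Over 63 genes in 8 lists, 7 listed genes were higher and 1 was lower, and 55 are outside the table. Without the 6 members the lists have 57 genes, of which 2 (3.51%) were listed, beside 4.36% of all genes at any level. Both were higher. Skp2, the F-box protein that marks the CDK inhibitor p27 for degradation, had a mean of 15.6 TPM in the Flag cells and 65.6 TPM in the Prdm14 cells, 4.21-fold higher. E2f2, an activating E2F factor that pocket proteins restrain, went from 7.17 to 21.4 TPM, 2.99-fold higher. Skp2 and E2f2 had folds in the range of the members, from 2.18 to 4.56. On the log2 scale that range, 1.13 to 2.19, also holds the median absolute change of 1.47 over all genes of the authors' deposited table. No listed gene came from the 9 genes of E- and A-type cyclins, Cdk2 and its activators, or from the 6 genes of the MuvB core with B-Myb. In the list of 12 genes of the MYC and MAX network, Mycn was the single listed gene. Myc, Mycl and Max have no value here. That list left out Mlxipl, which belongs with its genes Mlx and Mlxip and is not in the counts above. Mlxipl was lower, with 7.30 TPM in the Flag cells and 1.88 TPM in the Prdm14 cells.

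Of 77 genes in 4 lists of processes that G1 control feeds, 3 (3.90%) were listed, beside 4.36% of all genes at any level. None of 16 genes of replication licensing and S phase, none of 14 genes of G2 and mitosis and none of 25 MYC target genes was listed. Nothing more can be read from these lists, since a gene under 2-fold would also be outside the table. Of 22 genes of the p53 axis, which p19Arf feeds, 3 (13.6%) were listed and all 3 were higher, beside 4.36% of all genes listed and 52.8% of listed genes higher; this list was drawn up with its listed members known. They were Gdf15, a secreted stress cytokine, at 2.65-fold (4.78 TPM in the Flag cells, again below 5.01 TPM), Pmaip1, which encodes the apoptosis activator Noxa, at 2.26-fold, and Perp, a desmosomal p53 target, at 2.25-fold. Cdkn1a, Mdm2 and Trp53 are outside the table.

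Among 20 genes known to regulate the Cdkn2a locus, 3 (15.0%) were listed, all 3 of them higher, beside the same 4.36% and 52.8%. Nothing particular to these 20 genes is read from 3 counts. Each is known for repression at this locus. Tbx3, a T-box factor that represses p19Arf, went from 10.5 to 62.6 TPM, 5.98-fold higher. Kdm2b, a histone demethylase that binds unmethylated CpG islands and brings Polycomb complexes there, went from 87.7 to 205 TPM, 2.34-fold higher. Bmi1, a Polycomb subunit whose loss in mice raises both Cdkn2a products, went from 2.75 to 7.02 TPM, 2.55-fold higher, with a Flag mean below the 5.01 TPM at which the table's larger means begin. Ezh2, Eed, Suz12, Ring1 and Rnf2 are outside the table.

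In mouse embryonic stem cells that lack Dicer, high Rbl2 has been linked to low de novo DNA methyltransferase expression. Of those 3 genes, 2 were listed here and both were lower, beside 4.36% of all genes listed and 52.8% of listed genes higher. The list was chosen with earlier results of these data known, and nothing is read from its count. Dnmt3b went from 1032 to 78.7 TPM, 13.1-fold lower, and Dnmt3l from 482 to 168 TPM, 2.86-fold lower. Dnmt3a is outside the table. Rbl2 and Dnmt3b thus differed in opposite directions, and no link between them was tested.

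**Figure D5:**
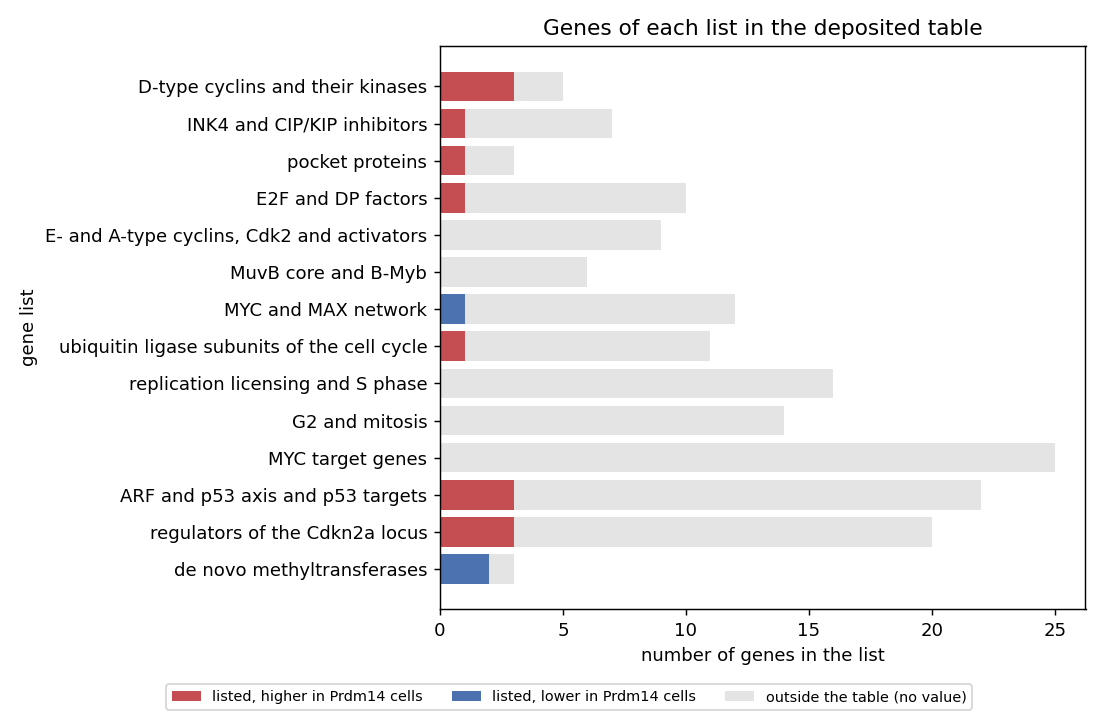
Number of genes in each list (horizontal), split into listed genes that were higher (red) or lower (blue) in the Prdm14 cells and genes outside the table, which have no value (grey). The D-type cyclin list has 3 of its 5 genes in red, all 3 of them members that were chosen from the listed genes. The lists of S phase, mitosis and MYC target genes have none in colour, beside 4.36% of all genes listed. No contrast between the lists is read from this.

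By their levels over both conditions, the listed genes most like each member were found by Euclidean distance between log2 TPM values, leaving out predicted genes. Tmppe (distance 0.02) and Gnb4 (0.03) were nearest to Cdk6, Zc3hav1 (0.05) and Fam234b (0.08) to Rbl2, and Aard (0.08) and Mb21d2 (0.13) to Ccnd2. Ass1 (0.19) and Asns (0.21) were nearest to Ccnd3, and H2afy2 (0.22) and Gbx2 (0.26) to Cdkn2a. Otx2, an epiblast transcription factor, at 0.26 and the fatty acid desaturase gene Fads2 at 0.30 were nearest to Mycn. These distances rest on 1 mean in each of 2 conditions.

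The annotation has overlapping genes at 4 of the 6, and no source used here states the strand setting of the authors' counting, so reads from either strand cannot be told apart there. Rbl2 shares 693 of its 7558 exon bases (9.17%) with Aktip and 892 (11.8%) with Gm45464. Ccnd3 shares 361 exon bases (4.11%) with Bysl, Ccnd2 shares 372 (3.95%) with Gm43126 and 368 (3.91%) with 9330179D12Rik, and Cdk6 shares 368 (2.63%) with Gm17590. All these partners lie on the opposite strand and none is in the table. Cdkn2a and Mycn overlap no other annotated gene.

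Markers of the cells were partly listed. Of 10 embryonic stem cell markers 4 were listed, Nanog, Zfp42, Esrrb and Klf4, and their summed mean was 449 TPM in the Flag cells and 1278 TPM in the Prdm14 cells. Of 9 primitive endoderm markers 3 were listed, with a sum of 31.9 TPM in the Flag cells and 6.06 TPM in the Prdm14 cells. Of 14 fibroblast or feeder markers Tagln alone was listed, at 5.91 and 1.23 TPM. Of 8 neuroectoderm markers Tubb3 and Ncam1 were listed, with a sum of 68.4 and 147 TPM, and none of 5 mesoderm markers was. These counts stand beside 4.36% of all genes listed and 52.8% of listed genes higher. Each sum holds listed markers alone, and a marker had to differ between the conditions to be listed. The size of a change in a sum is therefore partly set by that selection, and no sum is a total for a cell type. The listed embryonic stem cell markers were higher, and the listed primitive endoderm and fibroblast markers were lower. Tubb3 and Ncam1 were higher, but neural genes outside the marker list went both ways, so no direction is read for neuroectoderm. From the Flag to the Prdm14 cells, Sox11 went from 12.6 to 1.01 TPM and Sox3 from 10.8 to 5.37 TPM. Sox21 went from 1.04 to 8.34 TPM and Pou4f2 from 1.44 to 13.4 TPM. The part of the listed markers in the members' values was not tested. A change in the mix of cells and a change in RNA per cell cannot be told apart in such bulk samples.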

How the data were processed

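Total RNA was extracted with Trizol and sequenced on an MGI2000 instrument, per the labels' protocols. Bowtie 0.12.2 and the build mm10 are named, per the submitters' processing notes, and neither the TPM estimator nor the test is. For 886 selected genes the authors deposited a mean TPM in each condition, with a p-value, a q-value and the log2 fold change. The deposited log2 fold change equals the log2 ratio of the means to within 4.09e-11. All 886 IDs matched a symbol and GENCODE M21, which uses the same build. For each candidate number of adjusted genes, the genes whose rank implied by p and q was whole to within 0.01 were counted. The number taken, 20309, is the smallest whose count, 830 of 886, came close to the largest count found.

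Folds, ratios of levels, list counts and motif matches were computed from these values in Python 3.11.15 with pandas 2.3.3 and numpy 2.4.6, and drawn with matplotlib 3.10.9. No test was run, because the table has 1 value per gene and condition, a mean over an unstated number of libraries. The search for the number of adjusted genes and the motif search were tested on simulated data. The members and lists were chosen with earlier results of these data known. Named genes were the members, Prdm14, up to 4 listed genes of each list by absolute log2 fold change, and the 2 most alike genes of each member. Gadd45g was added because the series design text speaks of it. Mlxipl, Sox11, Sox3, Sox21 and Pou4f2, outside the lists, were added after values were seen. A planned search for a pocket-binding motif in the cyclin proteins was not run. Alternatives changed the pseudocount, the scaling, and the fold, q and TPM thresholds.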

Additional observations from a re-analysis of the deposited data

How the results depend on the processing

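The log2 ratios of the 6 genes kept their direction under every alternative run, as they had to. A pseudocount cannot turn a direction, and the rescaling shift was -0.006 on the log2 scale. The ratios moved by at most 0.17 with a pseudocount of 1 TPM and 0.02 with 0.1 TPM. Rescaled to genes outside the table, they moved by at most 0.01. With a pseudocount of 1 TPM they were 2.02 for Cdkn2a, 1.53 for Ccnd2, 1.43 for Rbl2, 1.12 for Ccnd3, 1.04 for Cdk6 and -1.26 for Mycn. With no spread or depth, a move was counted when it exceeded 1.5-fold. When only differences of 2 or more on the log2 scale were kept, counts fell, as they must under a stricter threshold: members to 1 higher and 0 lower, genes of the G1 lists to 2 higher and 0 lower, genes of S phase, mitosis, MYC target and p53 lists to 0 higher, and upstream genes to 1 higher and 1 lower. The share of higher genes in the table was then 34.7% in place of 52.8%. The q thresholds of 0.01 and 0.001 changed none of these counts. A minimum of 10 TPM took Bmi1 from the upstream genes, leaving 2 higher. No paired analysis was possible because the labels give 1 sample per condition and the table holds a mean alone. Depth is unknown, so no counting limit could be set.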

Other observations

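Beyond the fixed lists, a search of the table for symbols of cyclins, cyclin-dependent kinases and their activators, and Myb factors, made after values were seen, found 7 genes. Besides Ccnd2, Ccnd3 and Cdk6 it held Mybl1, which encodes A-Myb and was 2.16-fold higher (6.97 TPM in the Flag cells, 15.1 TPM in the Prdm14 cells). The other 3 were lower. Ccno, a cyclin known from the making of multiciliated cells, went from 23.4 to 6.94 TPM, 3.37-fold lower. Myb went from 11.2 to 4.41 TPM, 2.54-fold lower, and Cdk5r2, an activator of the neuronal kinase Cdk5, from 5.69 to 1.38 TPM, 4.12-fold lower.

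Of the 6 members, Ccnd3 alone had other listed genes within 1 Mb, 2 of them, the nearest being Tfeb at 137.3 kb, which was also higher.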
